A study of Mus musculus with 8 samples.

Results

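The mitosis and spindle genes described here are 47 genes named in a list, among them the cyclins and kinases that start mitosis, the proteins of the spindle and kinetochore, and the condensins. All 47 were present in a count table of 32499 genes, and all 47 passed the filter on low counts that left 12970 genes for testing. The lowest count of any member in any library was 62. RNA was measured in pre-B cells derived from C57BL/6 bone marrow without Arf (Arf-/-), a tumour suppressor product of the Cdkn2a locus, so that every group, the control included, carried this deletion. The 4 groups of 2 libraries were cells that received the empty vector, full-length ZNF384 (labelled wild type), the TAF15-ZNF384 fusion or the TCF3-ZNF384 fusion. The 3 proteins carried an HA tag and were delivered by lentivirus, and cells were sorted for GFP before total RNA was extracted. The ZNF384 protein binds DNA through zinc fingers, and in some acute leukaemias its gene is joined to that of TAF15 or TCF3. The promoter of the vector, the age of the mice and the number of cell clones are not given in the sources used here. The series design calls the replicates biological. The labels do not say whether they came from separate transductions, so the p-values measure the spread between these libraries. The 2 empty vector columns of the table are named without the replicate suffix that the other 6 carry, and a separate preparation of that group, if there was one, cannot be told apart from the difference between the groups in any comparison over it.

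Entry into mitosis is driven by the kinase CDK1 bound to cyclin A or cyclin B, and is helped by the Polo and Aurora kinases. Chromosomes are condensed by topoisomerase II and condensin, attach to spindle microtubules through kinetochores, and are held until the spindle assembly checkpoint is satisfied. The anaphase-promoting complex then marks securin and cyclin B for destruction, the sister chromatids separate, and the cell is cleaved. Most of these genes are transcribed late in the cell cycle, in G2 and mitosis, and their promoters are known for a CCAAT box, bound by NF-Y, and a cell cycle genes homology region (CHR), bound by the MuvB core of the DREAM and B-MYB complexes. Pre-B cells include a strongly dividing stage of B cell development.

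The promoter windows of 6 members are printed to show these elements, because 4 of them (Nek2, Ncapg, Ccnb1 and Plk1) were among the members that fell furthest with TCF3-ZNF384, Ube2c rose furthest with full-length ZNF384 and Prc1 was the 1 member that rose with TCF3-ZNF384. Each window is RefSeq sequence of build GRCm38.p6 and holds the 250 bases before and the 50 bases after the start of the gene, 5′ to 3′ on the strand of the gene. The windows lie at chr1:191821223-191821522 (plus strand) for Nek2, chr5:45669675-45669974 (plus) for Ncapg, chr13:100786437-100786736 (minus) for Ccnb1, chr7:122159185-122159484 (plus) for Plk1, chr2:164769679-164769978 (plus) for Ube2c and chr7:80294201-80294500 (plus) for the first of 2 windows listed for Prc1. Capitals mark CCAAT and, as CHR letters, TTTGAA or TTTAAA, each searched on both strands, so that a match on the other strand is printed as its reverse complement.
Nek2: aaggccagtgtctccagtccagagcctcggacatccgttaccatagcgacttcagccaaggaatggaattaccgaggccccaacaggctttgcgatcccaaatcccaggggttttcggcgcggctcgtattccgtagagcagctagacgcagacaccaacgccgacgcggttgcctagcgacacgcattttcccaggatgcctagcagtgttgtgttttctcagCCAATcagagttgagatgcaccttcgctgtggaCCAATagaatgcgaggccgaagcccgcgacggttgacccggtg
Ncapg: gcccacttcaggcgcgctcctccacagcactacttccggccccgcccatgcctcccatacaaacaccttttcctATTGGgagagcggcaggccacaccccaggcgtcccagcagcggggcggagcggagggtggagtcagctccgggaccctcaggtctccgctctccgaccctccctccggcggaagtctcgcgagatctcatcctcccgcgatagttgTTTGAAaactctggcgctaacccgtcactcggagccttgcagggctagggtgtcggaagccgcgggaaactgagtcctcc
Ccnb1: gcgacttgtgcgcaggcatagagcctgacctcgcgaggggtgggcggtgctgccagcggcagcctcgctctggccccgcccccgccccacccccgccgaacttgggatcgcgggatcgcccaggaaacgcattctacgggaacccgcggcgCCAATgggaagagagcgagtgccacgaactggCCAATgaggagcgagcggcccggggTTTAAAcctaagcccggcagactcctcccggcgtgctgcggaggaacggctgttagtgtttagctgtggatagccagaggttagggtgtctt
Plk1: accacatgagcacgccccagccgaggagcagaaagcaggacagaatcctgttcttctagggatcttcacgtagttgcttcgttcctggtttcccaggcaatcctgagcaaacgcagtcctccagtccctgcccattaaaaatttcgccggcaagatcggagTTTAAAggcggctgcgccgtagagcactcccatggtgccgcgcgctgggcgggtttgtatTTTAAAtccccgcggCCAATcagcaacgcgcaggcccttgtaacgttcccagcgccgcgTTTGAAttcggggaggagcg
Ube2c: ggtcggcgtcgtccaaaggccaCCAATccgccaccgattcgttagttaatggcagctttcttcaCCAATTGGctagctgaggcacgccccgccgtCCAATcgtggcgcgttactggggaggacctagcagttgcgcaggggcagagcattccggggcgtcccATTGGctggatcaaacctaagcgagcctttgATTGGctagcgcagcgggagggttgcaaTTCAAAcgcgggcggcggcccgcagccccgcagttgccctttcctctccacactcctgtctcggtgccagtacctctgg
Prc1: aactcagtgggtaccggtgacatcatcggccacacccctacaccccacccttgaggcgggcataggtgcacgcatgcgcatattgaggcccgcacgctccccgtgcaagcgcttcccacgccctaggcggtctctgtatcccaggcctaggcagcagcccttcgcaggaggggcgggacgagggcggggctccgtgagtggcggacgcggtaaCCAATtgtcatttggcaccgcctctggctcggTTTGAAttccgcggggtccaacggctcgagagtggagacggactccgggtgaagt
The Nek2 window held 2 CCAAT matches and no CHR letters. Plk1 held 3 CHR matches around 1 CCAAT, and Ube2c held 6 CCAAT matches, 2 of which overlap as CCAATTGG, with 1 CHR.

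A promoter window was listed for 39 of the 47 members. CHR letters were found in 33 of these 39 (84.6%), against 24.7% of all 17528 windows, and CCAAT in 31 (79.5%), against 38.8%. Both stood in 28 members (71.8%) and in 10.1% of all windows. The 3 windows with neither motif belonged to Mad2l1, Pttg1 and Nuf2. A match of letters is a description of the window and not a binding site. The windows of Ccna2, Cdc25c, Aurkb, Incenp, Kif20a, Tpx2, Smc4 and Foxm1 were not analysed here.

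Total counts ran from 9381954 to 41483660 per library, and the deeper libraries were those of the empty vector and full-length ZNF384. The labels were checked through Zfp384, the mouse gene of ZNF384, which read 24.0 and 21.6 CPM (the count divided by the TMM-scaled library size, on the usual CPM scale) with the empty vector and 51.1 to 511 CPM in the other 6 libraries. Of 12 pre-B cell markers, all but Rag1 and Rag2 (10 genes) were at 10 CPM or more in every library, while all 6 myeloid markers, all 5 stromal markers, 5 of 6 T cell markers (all but Lck) and 3 of 4 erythroid markers were under 3 CPM in every library. The 5 non-coding genes that took most counts held 27.2 and 33.2% of them with the empty vector, 10.9 and 12.5% with the full-length protein, 28.1 and 29.6% with the TAF15 fusion, and 18.5 and 24.5% with the TCF3 fusion. With these 5 genes left out of the fit, 12 members rose and 2 fell with full-length ZNF384 over the empty vector, 1 rose and 3 fell with TAF15-ZNF384, and 1 rose and 35 fell with TCF3-ZNF384. Among all tested genes of that fit, 1265 rose and 1339 fell, 661 rose and 789 fell, and 2038 rose and 2321 fell, in the same order. The members together held 1.12 and 1.00% of the counts with the empty vector and 1.48 and 1.32% with the full-length protein. They held 1.07 and 1.04% with the TAF15 fusion, and 1.02 and 0.929% with the TCF3 fusion. The 5 non-coding genes are part of these totals, so the shares of the members also move with theirs. In the empty vector cells the levels per kilobase of annotated exon ran from 2.38 CPM per kb for Spc25, a subunit of the NDC80 complex, to 294 for Mki67 and 476 for Ncapd2.

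With TCF3-ZNF384, most mitosis and spindle genes were below the empty vector. Of the 47 members, 34 fell and 1 (Prc1) rose at an adjusted p under 0.05 in edgeR's quasi-likelihood test, whereas 17% of all tested genes fell and 16.2% rose. The median log2 fold change of the members was -0.42, against 0.01 for all tested genes, and the members ran from -0.82 to 0.42. No member changed by a full log2 unit against the empty vector, whereas 1137 of the 12970 tested genes were called at that size or more. Both TCF3-ZNF384 libraries were the lowest of the 8 libraries for 31 of 47 members, as they were for 15.7% of all tested genes. In bulk RNA, fewer cells in mitosis and less RNA of these genes per cell cannot be told apart.

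Leaving out TCF3-ZNF384 replicate 2 brought the 34 lower calls down to 9, leaving out empty vector replicate 1 to 11, TCF3-ZNF384 replicate 1 to 20 and empty vector replicate 2 to 22. Nek2, Birc5, Anln and Ncapg were called lower without each of the 8 libraries in turn. The median over the members stayed between -0.46 and -0.36 in those fits. Each of them has fewer residual degrees of freedom, and the share of all tested genes called in it was not counted. Whether a lower count of calls there is particular to the members was not tested. With total-count scaling that leaves out the 5 non-coding genes, the median of all tested genes moved to 0.15, 67.5% of all calls were higher ones (48.8% with the scaling used here), and 20 members were called lower and 2 higher with a member median of -0.28.

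With full-length ZNF384, 12 members rose over the empty vector and 2 fell, against 10.8% and 9.87% of all tested genes. The median of the members was 0.26 (0.03 for all tested genes), and 39 of 47 had a positive fold change, as did 6969 of the 12970 tested genes. Both full-length ZNF384 libraries were the highest of the 8 for 25 of 47 members and for 16.7% of all tested genes. Replicate 1 of this group read above replicate 2 in 45 of 47 members, by a median of 0.30 on the log2 scale, whereas over all genes replicate 1 was the higher in 50.3%. Zfp384 read 51.1 CPM in replicate 1 and 90.2 CPM in replicate 2, and a link to the members was not tested. In the other groups replicate 1 was the higher in 37 of 47 members with TCF3-ZNF384 (49.5% of all genes), in 32 with the empty vector (53.3%) and in 11 with TAF15-ZNF384 (49.9%), with medians of 0.10, 0.08 and -0.08. Without replicate 1 of full-length ZNF384 the median of the members was 0.08 and 4 were called higher, and without replicate 2 these values were 0.38 and 28. The count of 12 also came to 4 without empty vector replicate 1, to 3 without empty vector replicate 2, and to 7 when either TCF3-ZNF384 library was left out. The 2 falls came to 1 without empty vector replicate 2. Ube2c and Ect2 were called higher and Ndc80 was called lower in each of the 8 fits that left out a library.

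With TAF15-ZNF384, 1 member rose over the empty vector (Kif20a) and 2 fell (Cenpa and Cenpe), against 5.01% and 6.01% of all tested genes, and the median was -0.14. All 3 calls ended when any empty vector, TAF15-ZNF384 or TCF3-ZNF384 library was left out, and when either full-length ZNF384 library was left out 11 members were called lower and 2 higher. With total-count scaling that leaves out the 5 non-coding genes, the median of all tested genes moved to 0.12, 67.2% of all calls were higher ones (45.5% with the scaling used here), and 3 members were called higher and 0 lower with a member median of -0.03. The 3 comparisons share the empty vector libraries. Zfp384 read 3.08-fold higher than the empty vector with full-length ZNF384, 7.61-fold with TAF15-ZNF384 and 21.1-fold with TCF3-ZNF384. The kind of protein and its level therefore cannot be told apart between these comparisons. Side by side, 22 members fell with TCF3-ZNF384 and passed no test with the other proteins, and 8 (Ccnb2, Cdk1, Aurkb, Cdca8, Bub1b, Ttk, Ube2c and Kif2c) rose with full-length ZNF384 and fell with TCF3-ZNF384. Cdc25b, Bub1, Mad2l1, Pttg1, Kif23, Nuf2 and Spc25 passed the test with none of the 3. The shares of all tested genes with these patterns were not counted.

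**Figure D1:**
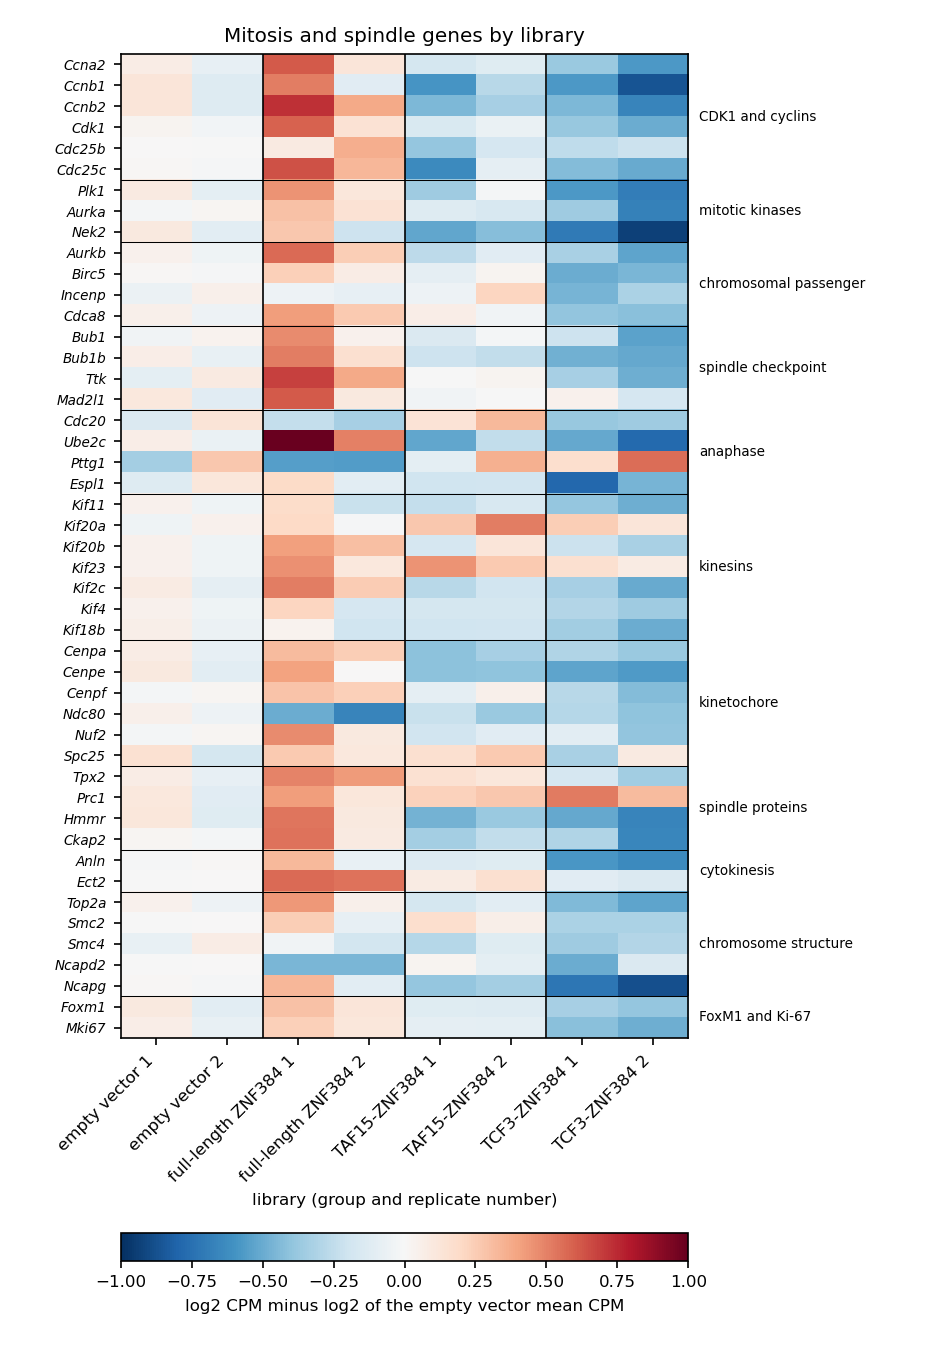
Heat map of the 47 mitosis and spindle genes (rows, grouped by role) in the 8 libraries (columns). Colour gives log2 CPM minus the log2 of the mean CPM of the empty vector libraries, on a scale from -1 to 1, with blue for lower and red for higher. The TCF3-ZNF384 columns are mostly blue, and replicate 1 of full-length ZNF384 is redder than replicate 2 in most rows.

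CDK1 acts with cyclins A and B, and the CDC25 phosphatases activate it. Of these 6 genes, 4 fell with TCF3-ZNF384 (Ccna2, Ccnb1, Ccnb2 and Cdk1) and 3 rose with full-length ZNF384 (Ccnb2, Cdk1 and Cdc25c). Cdk1 read 249 and 239 CPM with the empty vector, 367 and 269.9 with the full-length protein, 219 and 233 with TAF15-ZNF384, then 187 and 173 with TCF3-ZNF384. Both TCF3-ZNF384 libraries were below all others for Cdk1, the kinase that starts mitosis, and both full-length ZNF384 libraries were above all others. Cdk1 fell by 0.44 ± 0.13 (adjusted p = 0.0158) on the log2 scale with TCF3-ZNF384 and rose by 0.39 ± 0.12 (adjusted p = 0.0415) with full-length ZNF384.

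The Ccnb2 values were 136 and 114 CPM in empty vector cells, 207 and 162 in full-length ZNF384 cells, 91.5 and 99.1 in TAF15-ZNF384 cells and 91.6 and 78.9 in TCF3-ZNF384 cells. Cyclin B2 was lower in the 4 fusion libraries than in the 2 empty vector libraries, and higher in both full-length ZNF384 libraries. It fell by 0.55 ± 0.13 (adjusted p = 0.00522) with TCF3-ZNF384, rose by 0.57 ± 0.13 (adjusted p = 0.00683) with full-length ZNF384, and did not pass the test with TAF15-ZNF384, at -0.39 ± 0.13 (adjusted p = 0.0738). The table also lists a pseudogene copy, Ccnb2-ps, whose reads may be split with the gene. For Ccnb1, the libraries gave 81.9 and 69.1 CPM (empty vector), 108 and 69.9 (full-length ZNF384), 50.1 and 62.4 (TAF15-ZNF384) and 50.7 and 41.5 (TCF3-ZNF384). For cyclin B1 both TCF3-ZNF384 libraries were below the empty vector, but TCF3-ZNF384 replicate 1 overlapped TAF15-ZNF384, and the full-length ZNF384 replicates overlapped the empty vector. Ccnb1 fell by 0.72 ± 0.21 (adjusted p = 0.0273) with TCF3-ZNF384, or 1.64-fold, with the largest standard error among the 4 genes of this group that fell.

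Ccna2 read 341 and 307 CPM with the empty vector, 497 and 352 with the full-length protein, 287 and 299 with TAF15-ZNF384, then 251 and 217 with TCF3-ZNF384. Cyclin A2 was lowest in both TCF3-ZNF384 libraries and fell by 0.47 ± 0.14 (adjusted p = 0.0208). The exons of Ccna2 overlap those of Exosc9 on the opposite strand over 14.6% of their length, and whether the counting used strand is not given in the sources used here. The Cdc25c values were 10.6 and 10.4 CPM in empty vector cells, 16.2 and 13.2 in full-length ZNF384 cells, 6.74 and 9.84 in TAF15-ZNF384 cells and 7.73 and 7.38 in TCF3-ZNF384 cells. CDC25C, a phosphatase that removes inhibitory phosphates from CDK1, was highest in both full-length ZNF384 libraries and rose there by 0.50 ± 0.16 (adjusted p = 0.0369), while its fold change with TCF3-ZNF384 was -0.47 ± 0.18 (adjusted p = 0.0537). Cdc25b was between 17.8 and 30.0 CPM in all libraries and passed no test against the empty vector. The TCF3-ZNF384 calls of Ccna2, Ccnb1 and Ccnb2 ended without empty vector replicate 1 or TCF3-ZNF384 replicate 2, and that of Cdk1 when any of the 4 libraries compared was left out. With full-length ZNF384, Ccnb2 lost its call without empty vector replicate 2, Cdc25c when an empty vector library, a TCF3-ZNF384 library or full-length replicate 1 was left out, and Cdk1 when any library other than full-length replicate 2 was left out.

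The kinase genes Plk1, Aurka and Nek2, which act on centrosomes and spindle poles, fell with TCF3-ZNF384, and none of the 3 passed the test with full-length ZNF384 or TAF15-ZNF384. NEK2 separates the centrosomes at the start of mitosis. For Nek2, the libraries gave 333 and 289.8 CPM (empty vector), 376 and 269 (full-length ZNF384), 217 and 232 (TAF15-ZNF384) and 190.4 and 163 (TCF3-ZNF384). Both TCF3-ZNF384 libraries were below the TAF15-ZNF384 libraries, which were below both empty vector libraries. The Nek2 mean was 311 ± 30.3 CPM (SD, n = 2) with the empty vector and 177 ± 19.2 CPM (SD, n = 2) with TCF3-ZNF384, a fall by 0.82 ± 0.14 (adjusted p = 0.000834) or 1.76-fold, the largest fall of any member against the empty vector. With TAF15-ZNF384 the fold change of Nek2 was -0.47 ± 0.14 (adjusted p = 0.0527). Its promoter window, printed above, was the only one of the 6 without CHR letters.

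Plk1 read 19.3 and 17.0 CPM with the empty vector, 24.7 and 19.7 with the full-length protein, 14.1 and 17.9 with TAF15-ZNF384, then 12.1 and 11.2 with TCF3-ZNF384. PLK1, the Polo kinase that acts on centrosomes, kinetochores and cytokinesis, was lowest in both TCF3-ZNF384 libraries, and TAF15-ZNF384 overlapped the empty vector. Plk1 fell by 0.64 ± 0.15 (adjusted p = 0.0058), a change that was not called without empty vector replicate 1 or TCF3-ZNF384 replicate 2. The Aurka values were 26.9 and 27.7 CPM in empty vector cells, 33.4 and 30.1 in full-length ZNF384 cells, 25.01 and 24.4 in TAF15-ZNF384 cells and 21.4 and 17.1 in TCF3-ZNF384 cells. Aurora A, a kinase of the spindle poles, was lowest in both TCF3-ZNF384 libraries and highest in both full-length ZNF384 libraries. Aurka fell by 0.52 ± 0.12 (adjusted p = 0.00534) and was not called without TCF3-ZNF384 replicate 2.

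The chromosomal passenger complex corrects faulty attachments between kinetochores and microtubules, and consists of the kinase Aurora B, its scaffold INCENP, and survivin (Birc5) and borealin (Cdca8), which bring it to the centromere. All 4 genes fell with TCF3-ZNF384, and Aurkb and Cdca8 rose with full-length ZNF384. For Birc5, the libraries gave 38.2 and 37.7 CPM (empty vector), 44.8 and 40.0 (full-length ZNF384), 35.6 and 38.6 (TAF15-ZNF384) and 27.0 and 27.6 (TCF3-ZNF384). Survivin read 27.0 and 27.6 CPM with TCF3-ZNF384 and above 35 CPM in the other 6 libraries. Birc5 fell by 0.48 ± 0.11 (adjusted p = 0.00353) against the empty vector and by 0.44 ± 0.11 (adjusted p = 0.0204) against TAF15-ZNF384.

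Aurkb read 159 and 150.4 CPM with the empty vector, 229 and 184 with the full-length protein, 129 and 144 with TAF15-ZNF384, then 124 and 107 with TCF3-ZNF384. Aurora B was lowest with TCF3-ZNF384 and highest with full-length ZNF384, with no overlap among the empty vector, full-length and TCF3-ZNF384 libraries. Aurkb fell by 0.43 ± 0.12 (adjusted p = 0.014) and rose by 0.41 ± 0.12 (adjusted p = 0.0231) in the same order. The Cdca8 values were 24.9 and 23.1 CPM in empty vector cells, 32.1 and 28.8 in full-length ZNF384 cells, 25.1 and 23.5 in TAF15-ZNF384 cells and 18.3 and 17.98 in TCF3-ZNF384 cells. For borealin the empty vector and TAF15-ZNF384 libraries overlapped, and the TCF3-ZNF384 libraries lay below and the full-length ZNF384 libraries above them. Cdca8 fell by 0.41 ± 0.11 (adjusted p = 0.0143) and rose by 0.35 ± 0.11 (adjusted p = 0.0331). For Incenp, the libraries gave 33.2 and 35.8 CPM (empty vector), 33.2 and 32.5 (full-length ZNF384), 33.4 and 40.0 (TAF15-ZNF384) and 25.04 and 27.6 (TCF3-ZNF384). INCENP was lowest in both TCF3-ZNF384 libraries, and the other 6 libraries lay between 32.5 and 40.0 CPM. Incenp fell by 0.38 ± 0.11 (adjusted p = 0.0191) against the empty vector and by 0.47 ± 0.12 (adjusted p = 0.0214) against TAF15-ZNF384. The call of Birc5 against the empty vector held without each library, while that of Aurkb ended without empty vector replicate 1 or TCF3-ZNF384 replicate 2, that of Cdca8 without empty vector replicate 1 or a TCF3-ZNF384 library, and that of Incenp without empty vector replicate 2 or a TCF3-ZNF384 library. With full-length ZNF384, Aurkb was not called when an empty vector library or full-length replicate 1 was left out, nor Cdca8 when any library other than full-length replicate 2 was left out.

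Among the 4 spindle checkpoint genes, which hold back anaphase until every kinetochore is attached, Bub1b and Ttk fell with TCF3-ZNF384 and rose with full-length ZNF384, and Bub1 and Mad2l1 passed neither test. Bub1b read 495 and 449 CPM with the empty vector, 673 and 527 with the full-length protein, 408 and 398 with TAF15-ZNF384, then 338 and 330.3 with TCF3-ZNF384. BUBR1, the product of Bub1b and a part of the complex that blocks CDC20, was lowest with TCF3-ZNF384, next lowest with TAF15-ZNF384 and highest with full-length ZNF384, with no overlap between the 4 groups. Bub1b fell by 0.50 ± 0.11 (adjusted p = 0.00415) with TCF3-ZNF384 and rose by 0.35 ± 0.11 (adjusted p = 0.0433) with full-length ZNF384. The Ttk values were 15.99 and 18.2 CPM in empty vector cells, 27.4 and 22.2 in full-length ZNF384 cells, 17.1 and 17.5 in TAF15-ZNF384 cells and 13.6 and 12.2 in TCF3-ZNF384 cells. The kinase TTK, also called MPS1, starts the checkpoint signal at kinetochores and was lowest with TCF3-ZNF384 and highest with full-length ZNF384. Ttk fell by 0.42 ± 0.14 (adjusted p = 0.0351) and rose by 0.54 ± 0.13 (adjusted p = 0.0086).

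For Bub1, the libraries gave 28.2 and 29.7 CPM (empty vector), 40.3 and 29.8 (full-length ZNF384), 26.2 and 28.6 (TAF15-ZNF384) and 25.1 and 20.03 (TCF3-ZNF384). The BUB1 kinase was lowest in both TCF3-ZNF384 libraries, but its fold change of -0.37 ± 0.15 (adjusted p = 0.0712) did not pass the test. Mad2l1 read 76.3 and 65.5 CPM with the empty vector, 109 and 75.7 with the full-length protein, 69.3 and 70.9 with TAF15-ZNF384, then 72.9 and 63.0 with TCF3-ZNF384. MAD2, the other inhibitor of CDC20 in this group, overlapped between the empty vector and both fusions, with -0.06 ± 0.15 (adjusted p = 0.781) for TCF3-ZNF384. The Bub1b call with TCF3-ZNF384 ended without empty vector replicate 1, and that of Ttk when empty vector replicate 2 or any of the 4 fusion libraries was left out. The full-length ZNF384 call of Ttk ended without empty vector replicate 1 or full-length replicate 1, and that of Bub1b when any library other than full-length replicate 2 was left out.

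Of the 4 genes of anaphase, Cdc20, Ube2c and Espl1 fell with TCF3-ZNF384, Ube2c rose with full-length ZNF384, and Pttg1 had signs opposite to those of Ube2c in both comparisons without passing the test. UBE2C is the ubiquitin-conjugating enzyme of the anaphase-promoting complex. The Ube2c values were 130.0 and 118 CPM in empty vector cells, 246 and 177 in full-length ZNF384 cells, 86.5 and 105 in TAF15-ZNF384 cells and 87.3 and 72.5 in TCF3-ZNF384 cells. The full-length ZNF384 libraries were the highest, and the 4 fusion libraries were below both empty vector libraries. The Ube2c mean was 124 ± 8.17 CPM (SD, n = 2) with the empty vector, 211 ± 49.0 CPM (SD, n = 2) with full-length ZNF384 and 79.9 ± 10.5 CPM (SD, n = 2) with TCF3-ZNF384. Ube2c rose by 0.77 ± 0.15 (adjusted p = 0.00434) with full-length ZNF384, the largest rise of any member there, and fell by 0.64 ± 0.16 (adjusted p = 0.00795) with TCF3-ZNF384. Its exons overlap Tnnc2 on the opposite strand over 22.8% of their length, and Tnnc2 held 0 to 7 counts per library.

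For Cdc20, the libraries gave 27.1 and 32.7 CPM (empty vector), 25.4 and 23.8 (full-length ZNF384), 32.9 and 37.3 (TAF15-ZNF384) and 23.0 and 23.3 (TCF3-ZNF384). CDC20, the activator of the anaphase-promoting complex, was lowest in both TCF3-ZNF384 libraries, with the full-length ZNF384 libraries next, and TAF15-ZNF384 was the highest group. Cdc20 fell by 0.37 ± 0.12 (adjusted p = 0.0309) against the empty vector and by 0.60 ± 0.13 (adjusted p = 0.00738) against TAF15-ZNF384. Espl1 read 25.6 and 30.2 CPM with the empty vector, 31.9 and 26.0 with the full-length protein, 24.4 and 24.4 with TAF15-ZNF384, then 16.2 and 20.2 with TCF3-ZNF384. Separase, the protease that cuts cohesin, was lowest with TCF3-ZNF384, and Espl1 fell by 0.60 ± 0.14 (adjusted p = 0.00502). The Pttg1 values were 5.71 and 8.71 CPM in empty vector cells, 4.93 and 4.89 in full-length ZNF384 cells, 6.74 and 9.20 in TAF15-ZNF384 cells and 8.10 and 10.6 in TCF3-ZNF384 cells. Securin, the inhibitor of separase, was lowest in both full-length ZNF384 libraries, while the replicates of the empty vector, 5.71 and 8.71 CPM, were themselves far apart. Pttg1 had a fold change of 0.40 ± 0.22 (adjusted p = 0.181) with TCF3-ZNF384 and -0.55 ± 0.22 (adjusted p = 0.0867) with full-length ZNF384. Without TCF3-ZNF384 replicate 2 the Ube2c fall was not called, the Cdc20 fall was not called when a TCF3-ZNF384 library or empty vector replicate 2 was left out, and the Espl1 fall was not called without TCF3-ZNF384 replicate 1 or empty vector replicate 2.

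**Figure D2:**
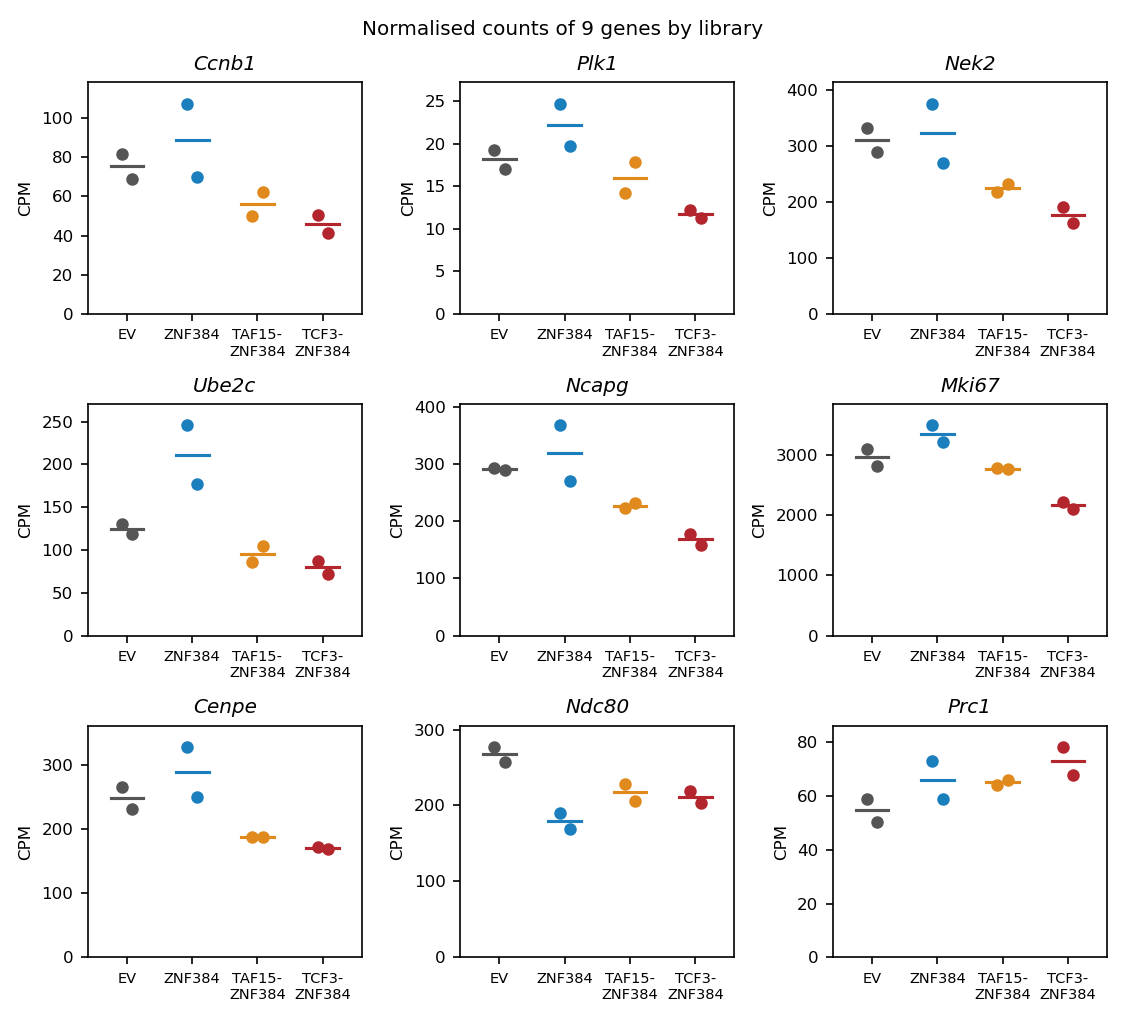
CPM of 9 members in each library (points) with the mean of the 2 libraries of each group (line); every axis starts at 0. Ccnb1, Plk1, Nek2, Ube2c, Ncapg, Mki67 and Cenpe have their lowest mean with TCF3-ZNF384, Ndc80 is lowest with full-length ZNF384 at 169 and 190 CPM, and Prc1 is highest on average with TCF3-ZNF384.

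Kinesins move spindle microtubules and chromosomes. Of 7 kinesin genes, 4 fell with TCF3-ZNF384 (Kif11, Kif2c, Kif4 and Kif18b), 2 rose with full-length ZNF384 (Kif20b and Kif2c) and 1 rose with TAF15-ZNF384 (Kif20a). For Kif11, the libraries gave 1217 and 1143 CPM (empty vector), 1342 and 1014 (full-length ZNF384), 999 and 1059 (TAF15-ZNF384) and 901 and 842 (TCF3-ZNF384). Kif11 encodes Eg5, the motor that pushes the spindle poles apart, and both TCF3-ZNF384 libraries were the lowest, with the full-length ZNF384 replicates spanning the empty vector and part of TAF15-ZNF384. Kif11 fell by 0.44 ± 0.12 (adjusted p = 0.0121). Kif2c read 54.1 and 48.1 CPM with the empty vector, 72.9 and 61.0 with the full-length protein, 42.1 and 44.9 with TAF15-ZNF384, then 40.7 and 36.0 with TCF3-ZNF384. MCAK, the microtubule-depolymerising kinesin encoded by Kif2c, was in the order TCF3-ZNF384, TAF15-ZNF384, empty vector, full-length ZNF384 with no overlap between groups. Kif2c fell by 0.42 ± 0.12 (adjusted p = 0.0138) and rose by 0.39 ± 0.11 (adjusted p = 0.0252) with full-length ZNF384.

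The Kif18b values were 206 and 190.0 CPM in empty vector cells, 203 and 173 in full-length ZNF384 cells, 172 and 173 in TAF15-ZNF384 cells and 155 and 141 in TCF3-ZNF384 cells. Kif18b, a kinesin of the microtubule plus ends, was lowest with TCF3-ZNF384, and it fell by 0.42 ± 0.11 (adjusted p = 0.0073). For Kif20b, the libraries gave 24.5 and 23.0 CPM (empty vector), 31.6 and 29.4 (full-length ZNF384), 21.2 and 25.9 (TAF15-ZNF384) and 20.4 and 19.01 (TCF3-ZNF384). The full-length ZNF384 libraries were the highest and the TCF3-ZNF384 libraries the lowest for Kif20b, a kinesin of late mitosis, which rose by 0.36 ± 0.11 (adjusted p = 0.0371) with full-length ZNF384. Kif20a read 27.6 and 29.2 CPM with the empty vector, 32.6 and 28.2 with the full-length protein, 34.2 and 40.5 with TAF15-ZNF384, then 33.6 and 30.9 with TCF3-ZNF384. Kif20a, which carries the chromosomal passenger complex to the midzone, was named after its values were seen because it was the only member that rose with TAF15-ZNF384, by 0.40 ± 0.12 (adjusted p = 0.0488). The exons of Kif20a overlap Cdc23 on the opposite strand over 32.3% of their length. Kif23, a kinesin of the central spindle, stayed between 27.2 and 38.5 CPM and passed no test, and Kif4 fell by 0.32 ± 0.12 (adjusted p = 0.0466) with TCF3-ZNF384, with exons that overlap Pdzd11 on the opposite strand over 15.1% of their length and a pseudogene copy, Kif4-ps. The falls of Kif2c and Kif18b were not called without empty vector replicate 1 or TCF3-ZNF384 replicate 2, that of Kif11 without empty vector replicate 1 or a TCF3-ZNF384 library, and that of Kif4 when any empty vector or fusion library was left out. The rises of Kif2c and Kif20b with full-length ZNF384 were not called when an empty vector library or full-length replicate 1 was left out, nor that of Kif20b when a TCF3-ZNF384 library was.

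Of 6 kinetochore genes, Cenpa, Cenpe, Cenpf and Ndc80 fell with TCF3-ZNF384 and Ndc80 fell with full-length ZNF384. Cenpa and Cenpe were also the only members that fell with TAF15-ZNF384, 4.26% of the 47 where 6.01% of all tested genes fell. The Cenpe values were 266 and 232 CPM in empty vector cells, 329 and 251 in full-length ZNF384 cells, 187 and 189 in TAF15-ZNF384 cells and 173 and 169 in TCF3-ZNF384 cells. CENP-E, a kinesin-like motor of the kinetochore, was lower in all 4 fusion libraries than in the other 4, with TCF3-ZNF384 below TAF15-ZNF384. Cenpe fell by 0.54 ± 0.12 (adjusted p = 0.00375) with TCF3-ZNF384 and by 0.41 ± 0.12 (adjusted p = 0.0484) with TAF15-ZNF384. For Cenpa, the libraries gave 111 and 99.3 CPM (empty vector), 131 and 125 (full-length ZNF384), 79.3 and 83.3 (TAF15-ZNF384) and 85.4 and 81.4 (TCF3-ZNF384). CENP-A, the histone H3 variant of centromeres, was also lower in all 4 fusion libraries, whose groups overlapped each other. Cenpa fell by 0.33 ± 0.10 (adjusted p = 0.0173) and by 0.37 ± 0.10 (adjusted p = 0.0286). Both TAF15-ZNF384 calls ended when any empty vector, TAF15-ZNF384 or TCF3-ZNF384 library was left out, and under total-count scaling without the 5 non-coding genes.

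Ndc80 read 277 and 258 CPM with the empty vector, 189.5 and 169 with the full-length protein, 229 and 206 with TAF15-ZNF384, then 219 and 203 with TCF3-ZNF384. NDC80, the microtubule-binding protein of the outer kinetochore, was lowest with full-length ZNF384, and both fusions were below the empty vector. Ndc80 fell by 0.58 ± 0.10 (adjusted p = 0.00136) with full-length ZNF384 and by 0.34 ± 0.10 (adjusted p = 0.0189) with TCF3-ZNF384. Nuf2 and Spc25, which encode other subunits of the same complex, had fold changes of 0.30 ± 0.13 (adjusted p = 0.124) and 0.19 ± 0.17 (adjusted p = 0.458) with full-length ZNF384. An intron of Ndc80 holds a 5S_rRNA gene on the same strand in the mm9 annotation, with 0 shared exon bases, and the share of the 5 non-coding genes was also lowest in the full-length ZNF384 libraries. The part of non-coding RNA in the Ndc80 value was not tested. The Cenpf values were 42.0 and 43.3 CPM in empty vector cells, 52.0 and 50.2 in full-length ZNF384 cells, 40.1 and 44.3 in TAF15-ZNF384 cells and 35.3 and 31.6 in TCF3-ZNF384 cells. CENP-F, a large protein of the outer kinetochore, was lowest with TCF3-ZNF384 and highest with full-length ZNF384, and Cenpf fell by 0.36 ± 0.10 (adjusted p = 0.0167). The Ndc80 fall with full-length ZNF384 was called without each library in turn. Of the falls with TCF3-ZNF384, that of Cenpe ended without empty vector replicate 1, that of Cenpa without this library, TCF3-ZNF384 replicate 1 or TCF3-ZNF384 replicate 2, that of Cenpf without TCF3-ZNF384 replicate 2 or an empty vector library, and that of Ndc80 when any of the 4 libraries compared was left out.

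Among 4 spindle proteins, Hmmr and Ckap2 fell with TCF3-ZNF384, Prc1 rose with TCF3-ZNF384, and Tpx2 rose with full-length ZNF384. For Prc1, the libraries gave 58.9 and 50.4 CPM (empty vector), 73.2 and 59.0 (full-length ZNF384), 64.3 and 66.0 (TAF15-ZNF384) and 78.3 and 68.0 (TCF3-ZNF384). PRC1 bundles the antiparallel microtubules of the central spindle. Both TCF3-ZNF384 libraries were above both empty vector libraries, but the TCF3-ZNF384 and full-length ZNF384 ranges overlapped. Prc1 rose by 0.42 ± 0.12 (adjusted p = 0.0186) with TCF3-ZNF384 and had fold changes of 0.28 ± 0.12 (adjusted p = 0.125) with full-length ZNF384 and 0.25 ± 0.13 (adjusted p = 0.218) with TAF15-ZNF384. Its call ended without empty vector replicate 2 or TCF3-ZNF384 replicate 1.

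Hmmr read 187 and 159 CPM with the empty vector, 250.5 and 185 with the full-length protein, 125 and 134 with TAF15-ZNF384, then 121 and 109 with TCF3-ZNF384. HMMR, a spindle protein that binds hyaluronan outside the cell, was lower in the 4 fusion libraries than in the empty vector, and fell by 0.59 ± 0.14 (adjusted p = 0.00469) with TCF3-ZNF384. The Ckap2 values were 92.1 and 89.4 CPM in empty vector cells, 132 and 96.6 in full-length ZNF384 cells, 71.8 and 76.6 in TAF15-ZNF384 cells and 73.8 and 57.8 in TCF3-ZNF384 cells. The spindle protein CKAP2 was below the empty vector in the 4 fusion libraries, which overlapped between fusions, and fell by 0.47 ± 0.15 (adjusted p = 0.0254) with TCF3-ZNF384. For Tpx2, the libraries gave 17.8 and 15.97 CPM (empty vector), 23.9 and 22.6 (full-length ZNF384), 18.8 and 18.3 (TAF15-ZNF384) and 15.0 and 13.3 (TCF3-ZNF384). TPX2, the activator of Aurora A on the spindle, was highest in both full-length ZNF384 libraries and rose there by 0.46 ± 0.11 (adjusted p = 0.0112), a call that ended without empty vector replicate 2. The falls of Hmmr and Ckap2 were not called without empty vector replicate 1 or TCF3-ZNF384 replicate 2, nor that of Ckap2 without empty vector replicate 2.

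Of the 2 cytokinesis genes, Anln fell with TCF3-ZNF384 and Ect2 rose with full-length ZNF384. Anln read 210.4 and 213 CPM with the empty vector, 265 and 201 with the full-length protein, 193 and 195 with TAF15-ZNF384, then 141 and 136 with TCF3-ZNF384. Anillin, the scaffold of the contractile ring, was lowest in both TCF3-ZNF384 libraries and overlapped among the empty vector and full-length ZNF384 libraries. Anln fell by 0.61 ± 0.12 (adjusted p = 0.00133) against the empty vector, and was called without each library in turn. The Ect2 values were 12.7 and 12.8 CPM in empty vector cells, 18.9 and 18.6 in full-length ZNF384 cells, 13.5 and 14.3 in TAF15-ZNF384 cells and 11.8 and 11.6 in TCF3-ZNF384 cells. ECT2, the exchange factor that activates RhoA at the cleavage plane, was highest in both full-length ZNF384 libraries, where the replicates differed by under 1 CPM. Ect2 rose by 0.55 ± 0.11 (adjusted p = 0.0038), was called without each library in turn, and had a fold change of -0.13 ± 0.12 (adjusted p = 0.455) with TCF3-ZNF384.

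All 5 genes of chromosome structure fell with TCF3-ZNF384, and 1 fell with full-length ZNF384. For Ncapg, the libraries gave 294 and 291 CPM (empty vector), 369 and 272 (full-length ZNF384), 223 and 231 (TAF15-ZNF384) and 178 and 159 (TCF3-ZNF384). NCAPG, a subunit of condensin I, was lowest in both TCF3-ZNF384 libraries and next lowest in both TAF15-ZNF384 libraries, with no overlap. The Ncapg mean was 293 ± 2.37 CPM (SD, n = 2) with the empty vector and 169 ± 12.8 CPM (SD, n = 2) with TCF3-ZNF384, a fall by 0.80 ± 0.13 (adjusted p = 0.00029) or 1.74-fold that was called without each library in turn. Its exons overlap Lcorl on the opposite strand over 13.3% of their length. Top2a read 1247 and 1169.6 CPM with the empty vector, 1633 and 1254 with the full-length protein, 1068 and 1125 with TAF15-ZNF384, then 890.5 and 836 with TCF3-ZNF384. Topoisomerase II alpha was in the order TCF3-ZNF384, TAF15-ZNF384, empty vector, full-length ZNF384 without overlap, and Top2a fell by 0.48 ± 0.12 (adjusted p = 0.00576).

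The Smc2 values were 51.4 and 51.7 CPM in empty vector cells, 61.1 and 48.8 in full-length ZNF384 cells, 58.0 and 53.7 in TAF15-ZNF384 cells and 41.3 and 41.4 in TCF3-ZNF384 cells. SMC2, the ATPase core of condensin with SMC4, set the TCF3-ZNF384 libraries below the other 6, and Smc2 fell by 0.32 ± 0.12 (adjusted p = 0.0467), as did Smc4 by 0.32 ± 0.10 (adjusted p = 0.0274). For Ncapd2, the libraries gave 2147 and 2159.6 CPM (empty vector), 1565 and 1569 (full-length ZNF384), 2195 and 2016 (TAF15-ZNF384) and 1524 and 1951 (TCF3-ZNF384). NCAPD2, another subunit of condensin I, was below the empty vector in both full-length ZNF384 and both TCF3-ZNF384 libraries, and the 2 TCF3-ZNF384 replicates were far apart. Ncapd2 fell by 0.46 ± 0.11 (adjusted p = 0.0113) with full-length ZNF384 and by 0.31 ± 0.11 (adjusted p = 0.0485) with TCF3-ZNF384, so that it and Ncapg, of the same complex, differed in sign with full-length ZNF384, where Ncapg had 0.13 ± 0.12 (adjusted p = 0.493). An intron of Ncapd2 holds Scarna10, a small non-coding RNA gene on the same strand (mm9 chr6:125136377-125136701), with 0 shared exon bases in that annotation, and the part of its RNA in the high Ncapd2 level was not tested. The falls of Smc2 and Ncapd2 with TCF3-ZNF384 were not called when an empty vector library, a TAF15-ZNF384 library or TCF3-ZNF384 replicate 1 was left out, nor that of Smc2 without TCF3-ZNF384 replicate 2. The fall of Smc4 ended without empty vector replicate 2 or a TCF3-ZNF384 library, that of Top2a without empty vector replicate 1 or TCF3-ZNF384 replicate 2, and that of Ncapd2 with full-length ZNF384 when an empty vector library was left out.

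FoxM1, a transcription factor of the G2 and mitosis genes, and Ki-67, the protein used as a proliferation marker, both fell with TCF3-ZNF384. Foxm1 read 112 and 97.1 CPM with the empty vector, 128 and 114 with the full-length protein, 96.1 and 95.7 with TAF15-ZNF384, then 83.2 and 80.1 with TCF3-ZNF384. The Mki67 values were 3109 and 2823 CPM in empty vector cells, 3502 and 3217 in full-length ZNF384 cells, 2791 and 2767 in TAF15-ZNF384 cells and 2223 and 2109 in TCF3-ZNF384 cells. Both genes were lowest in both TCF3-ZNF384 libraries, with the TAF15-ZNF384 libraries next and the full-length ZNF384 libraries highest. Foxm1 fell by 0.36 ± 0.10 (adjusted p = 0.0172) and Mki67 by 0.45 ± 0.10 (adjusted p = 0.00267), and with full-length ZNF384 their fold changes were 0.21 ± 0.10 (adjusted p = 0.158) and 0.18 ± 0.10 (adjusted p = 0.206). The Mki67 call ended without empty vector replicate 1, and the Foxm1 call when that library or a TCF3-ZNF384 library was left out.

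**Figure D3:**
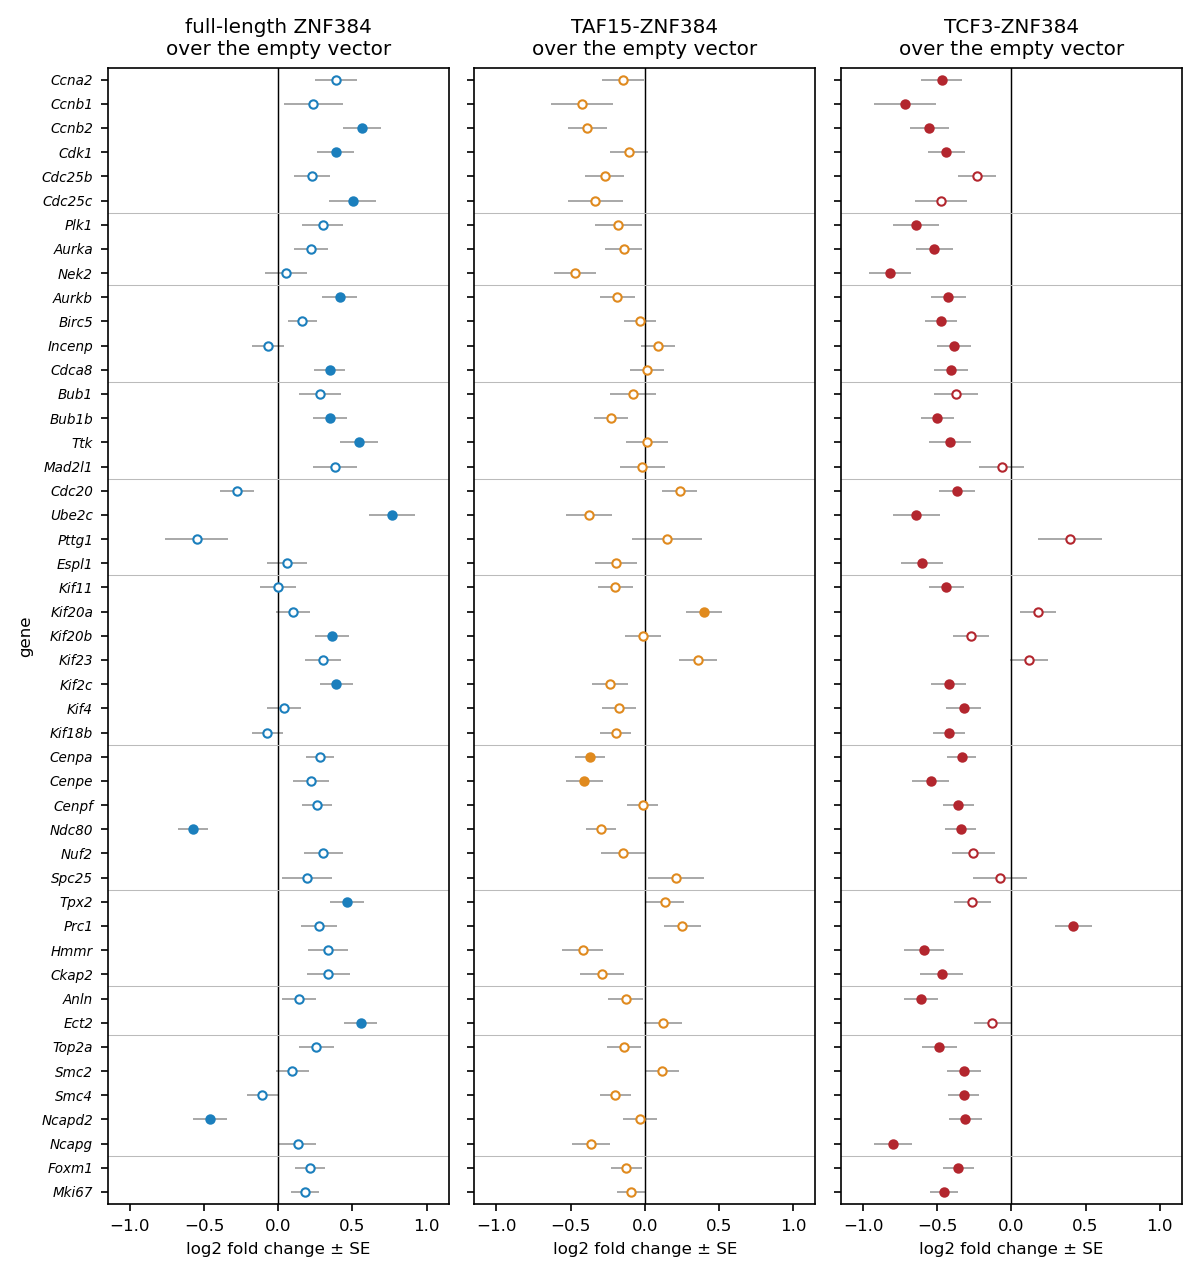
Log2 fold change over the empty vector (x axis, bars ± SE) of each of the 47 members (y axis) in 3 panels (full-length ZNF384, the TAF15 fusion and the TCF3 fusion); filled points have an adjusted p under 0.05 and open points do not. The filled points number 14, 3 and 35 in the 3 panels, and the 3 comparisons share the empty vector libraries.

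Members whose promoter window held both CHR letters and CCAAT numbered 28. Of these, 24 fell and 1 rose with TCF3-ZNF384, against 17% and 16.2% of all tested genes, and their median was -0.44. Of the 8 with either motif alone, 5 fell (median -0.40). None of the 3 with neither, Mad2l1, Pttg1 and Nuf2, was called (median -0.06). These counts are a description, with 3 genes in the smallest class. Falls among other genes with these motifs were not counted, and a link between motif and change was not tested.

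The fusions were also set against full-length ZNF384, which shares the ZNF384 part with them. Over full-length ZNF384, Zfp384 read 6.84-fold higher with TCF3-ZNF384 and 2.47-fold higher with TAF15-ZNF384. The kind of protein and its level therefore cannot be told apart in these comparisons. TCF3-ZNF384 gave the widest gap: 38 members fell and 1 rose, against 23.4% and 22.2% of all tested genes, and the median was -0.65 (0.00 for all tested genes). Ube2c fell by 1.41 ± 0.16 (adjusted p = 2.29e-05), or 2.65-fold, and Ccnb2 by 1.12 ± 0.13 (adjusted p = 1.44e-05), and these were the 2 members past a full log2 unit. Of the 12970 tested genes, 1840 were called at that size or more. Pttg1, the securin gene, was the 1 that rose, by 0.95 ± 0.22 (adjusted p = 0.00321), and its call ended without TCF3-ZNF384 replicate 2. Of the 38 falls, 29 were called without each library in turn, among them Plk1, Aurka and Nek2, Cdk1 with its 3 cyclins, Top2a, Foxm1 and Mki67.

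TAF15-ZNF384 against full-length ZNF384 gave 26 falls and 4 rises, against 17.9% and 15.4% of all tested genes, with a median of -0.37 (-0.02 for all tested genes). Cdk1, its 3 cyclin genes, Cdc25b, Cdc25c, Plk1, Aurka and Nek2 all fell. Ube2c fell by 1.14 ± 0.16 (adjusted p = 0.00024), Ccnb2 by 0.96 ± 0.13 (adjusted p = 0.000131) and Cenpa by 0.65 ± 0.10 (adjusted p = 0.000265), which with Aurkb, Bub1b, Kif2c, Cenpe and Hmmr made 8 falls that were called without each library in turn. Cdc20 rose by 0.51 ± 0.12 (adjusted p = 0.00549), Ncapd2 by 0.43 ± 0.11 (adjusted p = 0.0108), Ndc80 by 0.28 ± 0.10 (adjusted p = 0.0496) and Pttg1 by 0.70 ± 0.24 (adjusted p = 0.0366). The 26 falls came to 8 without TAF15-ZNF384 replicate 1, to 14 without TAF15-ZNF384 replicate 2 and to 13 without full-length ZNF384 replicate 1, and the 4 rises came to 1 when either TAF15-ZNF384 library was left out. With total-count scaling that leaves out the 5 non-coding genes, the medians of all tested genes were 0.12 here and 0.18 for TCF3-ZNF384 over full-length ZNF384, higher calls were 65% and 65.5% of all calls (46.4% and 48.7% with the scaling used here), and 17 and 32 members fell.

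The fusions differed from each other in 8 members, all lower with TCF3-ZNF384, against 4.17% of all tested genes lower and 5.91% higher. Zfp384 read 2.77-fold higher with TCF3-ZNF384 than with TAF15-ZNF384, so the kind of fusion and its level cannot be told apart. The median of the members was -0.26 (0.00 for all tested genes), and 43 of 47 had a negative fold change, as did 6460 of the 12970 tested genes. The 8 were Birc5, Incenp and Cdca8 of the chromosomal passenger complex, Cdc20, Anln, Smc2, Ncapg and Mki67. Mki67 fell by 0.36 ± 0.10 (adjusted p = 0.0297), Ncapg by 0.43 ± 0.13 (adjusted p = 0.0456), Anln by 0.48 ± 0.12 (adjusted p = 0.0185), Smc2 by 0.43 ± 0.12 (adjusted p = 0.0333) and Cdca8 by 0.42 ± 0.12 (adjusted p = 0.0424). None of the 8 was called in all fits that left out a library: the count was 0 when TAF15-ZNF384 replicate 2 or either TCF3-ZNF384 library was left out, 2 without TAF15-ZNF384 replicate 1, 4 when either empty vector library was left out, and 22 and 23 without replicate 1 and replicate 2 of full-length ZNF384.

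Other mitosis genes, 83 tested genes outside the 47, were counted from a list written for this purpose. With TCF3-ZNF384 over the empty vector, 33 of 83 fell (39.8%) and 7 rose (8.43%), against 17% and 16.2% of all tested genes, with a median of -0.30. Casc5, the KNL1 scaffold of kinetochores, fell by 0.92 ± 0.12 (adjusted p = 5.27e-05), Nsl1, a subunit of the MIS12 complex, by 0.64 ± 0.10 (adjusted p = 0.000328), and the kinesin Kif15 by 0.71 ± 0.12 (adjusted p = 0.000387). Anapc4, a subunit of the anaphase-promoting complex, rose by 1.55 ± 0.11 (adjusted p = 1.47e-07), the centromere gene Cenpn by 0.80 ± 0.11 (adjusted p = 8.82e-05), and Wee1, whose kinase inhibits CDK1, by 0.62 ± 0.13 (adjusted p = 0.00194). With full-length ZNF384, 13 rose (15.7%) and 7 fell (8.43%), against 10.8% and 9.87% of all tested genes, so that the share of falls was near that of the whole table (median 0.08). The microtubule polymerase gene Ckap5 rose by 0.60 ± 0.10 (adjusted p = 0.00114), Anapc1 by 0.53 ± 0.10 (adjusted p = 0.0018) and Knstrn, a spindle-associated gene, by 0.72 ± 0.13 (adjusted p = 0.00206), while Cks2, a CDK-binding subunit, fell by 0.97 ± 0.16 (adjusted p = 0.00125), Gtse1 by 0.51 ± 0.11 (adjusted p = 0.00528) and Cenpn by 0.44 ± 0.11 (adjusted p = 0.0124). With TAF15-ZNF384, 2 rose and 2 fell, 2.41% each, which is fewer than the 5.01% and 6.01% of all tested genes (median -0.00), with Cenpn up by 0.97 ± 0.11 (adjusted p = 9.81e-05) and Ccnf, the gene of cyclin F, up by 0.53 ± 0.14 (adjusted p = 0.0239), and Casc5 down by 0.44 ± 0.12 (adjusted p = 0.0305) and Nsl1 down by 0.36 ± 0.10 (adjusted p = 0.0375). These calls were not recomputed with libraries left out.

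Between the proteins, TCF3-ZNF384 over TAF15-ZNF384 gave 15 falls (18.1%) and 1 rise (1.20%) among these 83, against 4.17% and 5.91% of all tested genes, among them the regulators Mybl2, the gene of B-MYB, which fell by 0.87 ± 0.14 (adjusted p = 0.00137), and E2f1, which fell by 0.58 ± 0.13 (adjusted p = 0.0109). Over full-length ZNF384, 43 fell (51.8%, against 23.4% of all tested genes) and 6 rose (7.23%, against 22.2%) with TCF3-ZNF384. TAF15-ZNF384 over full-length ZNF384 gave 19 falls (22.9%, against 17.9%) and 9 rises (10.8%, against 15.4%).

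The list of DNA replication genes held 42 genes of S phase, the stage of chromosome duplication. With TCF3-ZNF384 over the empty vector, 23 fell (54.8%) and 1 rose (2.38%), against 17% and 16.2% of all tested genes (median -0.34), and the helicase gene Mcm5 fell by 0.77 ± 0.12 (adjusted p = 0.000317), the primase gene Prim2 by 0.72 ± 0.11 (adjusted p = 0.000198) and Mcm10 by 0.85 ± 0.15 (adjusted p = 0.000531). With full-length ZNF384, 2 rose and 2 fell, 4.76% each against 10.8% and 9.87% of all tested genes (median 0.03). With TAF15-ZNF384, 2 rose (4.76%) and 0 fell, against 5.01% and 6.01% (median 0.07). All 4 shares lay near or below those of the whole table, on 2 genes or fewer each. TCF3-ZNF384 over TAF15-ZNF384 gave 18 falls of 42 (42.9%, against 4.17% of all tested genes) and a median of -0.41, where the mitosis and spindle genes had 8 of 47 and -0.26. TAF15-ZNF384 over full-length ZNF384 gave 2 falls of 42 (4.76%, against 17.9% of all tested genes) and a median of 0.00, where the mitosis and spindle genes had 26 of 47 and -0.37. The difference between the lists was not tested.

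**Figure D4:**
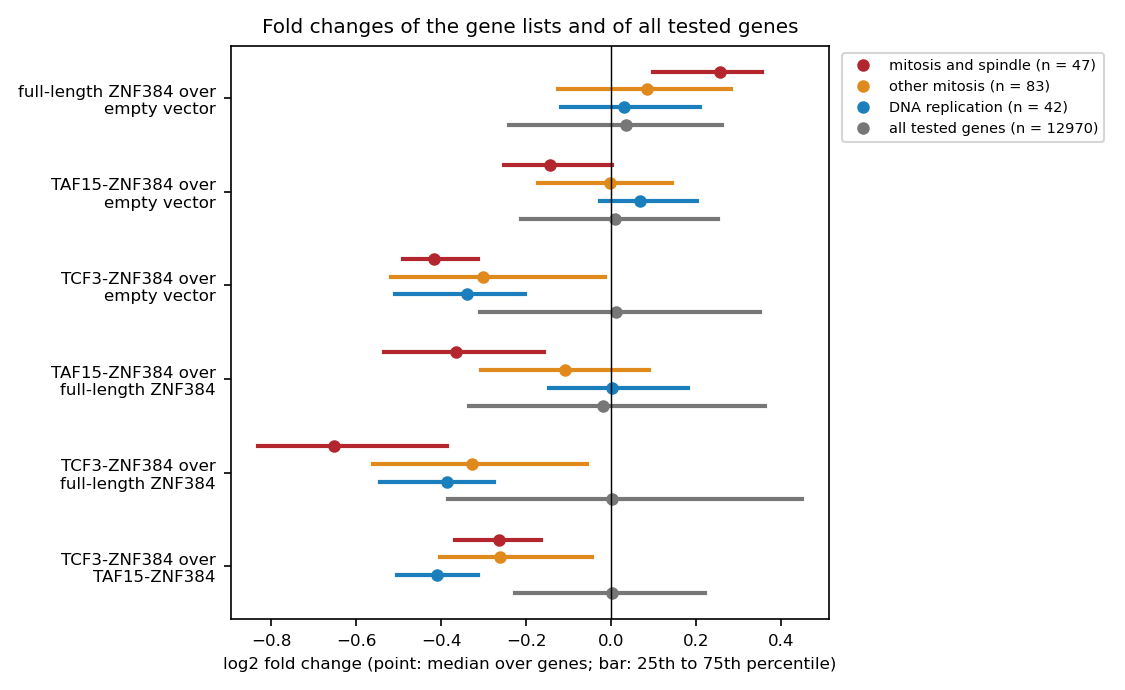
Median (point) and 25th to 75th percentile (bar) of the log2 fold changes of the 47 mitosis and spindle genes, 83 other mitosis genes, 42 DNA replication genes and all 12970 tested genes in the 6 comparisons. The mitosis and spindle genes lie lowest at a median of -0.65 for TCF3-ZNF384 over full-length ZNF384 and highest at 0.26 for full-length ZNF384 over the empty vector.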

How the data were processed

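RNA was measured by sequencing total RNA from 8 libraries of mouse pre-B cells, 2 in each of 4 groups, with stranded total RNA libraries per the labels' protocols. The deposited values are raw counts per gene, made by the authors by running HTSeq 0.6.1p1 on the mm9 build, per the submitters' processing notes. The aligner, the annotation and the strand setting are not given in the sources used here. Groups and replicate numbers came from the sample titles.

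The analysis used edgeR 4.0.16 in R 4.3.3. Low genes were removed with filterByExpr by group (minimum count 10), libraries were scaled by TMM, and a robust quasi-likelihood model with 1 term per group was fitted to all 8 libraries and 12970 genes, leaving 4 residual degrees of freedom (biological coefficient of variation 0.0958). The 6 comparisons used the 2-sided quasi-likelihood F test, with p adjusted by Benjamini-Hochberg over all tested genes and a threshold of 0.05. CPM values use TMM-scaled library sizes, and log2 fold changes are given ± SE. The model was tested on simulated data.

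Members given by library were, in each of 11 roles, up to 4 with the smallest adjusted p over the 6 comparisons, plus Ccnb1, Cdk1, Plk1, Aurkb, Foxm1 and Mki67. Other lists were given by counts and up to 3 genes per direction. The members and lists were chosen with earlier results of these data known. Alternatives were DESeq2 size factors, total-count scaling without 5 abundant non-coding genes, leaving those 5 out, the DESeq2 1.42.0 Wald test, no filter, a replicate block, separate models for each pair of groups, and leaving out each library, whose lone partner was then taken to vary like the other groups. Gene positions and exon overlaps came from GENCODE vM1 (mm9), matched by symbol, and promoter windows from RefSeq (GRCm38.p6).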

Additional observations from a re-analysis of the deposited data

How the results depend on the processing

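The median log2 fold change of the members kept its sign in all 6 comparisons under every alternative run. Counts of members called moved by more than 1.5 times in these settings. Fits of only the groups compared gave 5 higher for full-length ZNF384 over the empty vector (12 in the model of all libraries), 3 higher and 11 lower for TAF15-ZNF384 over the empty vector (1 and 2), 17 lower for TAF15-ZNF384 over full-length ZNF384 (26) and 23 lower for TCF3-ZNF384 over TAF15-ZNF384 (8). Total-count scaling without the 5 non-coding genes gave 3 higher and 0 lower for TAF15-ZNF384 over the empty vector, 2 higher and 20 lower for TCF3-ZNF384 over the empty vector (1 and 34), 17 lower for TAF15-ZNF384 over full-length ZNF384 and 4 higher for TCF3-ZNF384 over full-length ZNF384 (1). For TAF15-ZNF384 over the empty vector, the DESeq2 Wald test gave 0 higher and 4 lower, and no filter gave 8 lower. The cause was not tested.

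Leaving out each library in turn gave 3 to 28 higher and 1 to 2 lower for full-length ZNF384 over the empty vector, 0 to 2 higher and 0 to 11 lower for TAF15-ZNF384, and 0 to 1 higher and 9 to 36 lower for TCF3-ZNF384. It gave 1 to 4 higher and 8 to 33 lower for TAF15-ZNF384 over full-length ZNF384, 0 to 3 higher and 29 to 39 lower for TCF3-ZNF384 over full-length ZNF384, and 0 to 23 lower for TCF3-ZNF384 over TAF15-ZNF384.

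The groups share replicate numbers 1 and 2, and deviations of same-numbered libraries correlated at 0.0136 to 0.225 between groups across genes, so the numbers were not taken to pair the samples. With the replicate block, TAF15-ZNF384 over the empty vector had 2 higher and 7 lower (1 and 2 without it). TCF3-ZNF384 over full-length ZNF384 had 2 higher (1 without it). No other count moved by more than 1.5 times, and TCF3-ZNF384 over the empty vector had 35 lower (34 without it). Precision was limited by 2 libraries a group and by the depth of the shallowest, 9381954 counts. In the fits that left out a library, the share of all tested genes called was not counted.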
